A study of Mus musculus with 6 samples.

Results

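The circadian clock genes described here are 10 genes taken by their names from the table of all genes: Arntl (also called Bmal1), Clock, Per1, Per2, Per3, Cry1, Cry2, Nr1d1, Nr1d2 and Dbp. All 10 were found among the 17924 genes of the table. RNA was sequenced from 3 cultures of control (CTL) cells and 3 cultures of Nelfb-/- cells, described as biological triplicates. CTL cells came from Pdgfra-Cre+ mice that were either Nelfb wt/wt or Nelfb fl/wt, and which of these genotypes each CTL culture had is not given in the sources used here. Nelfb-/- cells came from Nelfb fl/fl Pdgfra-Cre+ mice, so that both groups carried Cre, which is expressed from the promoter of Pdgfra, a gene of fibroblasts and adipocyte precursors. The mice were on a C57BL/6J background, and the cells were dermal fibroblasts of the dorsal skin of newborn pups that had spent 14 days in adipocyte differentiation medium. The labels name no other treatment, and the time of day of collection and any resetting of the clocks of the cultures are not given in the sources used here.

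Nelfb encodes a subunit of the negative elongation factor, which holds RNA polymerase II shortly after the start of transcription. In the clock of mammalian cells, the activators Arntl and Clock bind E-boxes as a pair and switch on the Per, Cry, Nr1d and Dbp genes. The Per and Cry proteins return to the nucleus and block the pair, while Nr1d1 and Nr1d2 repress Arntl through sites they share with the ROR activators, and Dbp acts on D-boxes of further genes. The loop turns in fibroblasts and adipocytes as well as in the brain, each cell keeps its own phase unless it is reset, and clock genes with different phases peak at different times of day.

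The 6 libraries had depths of 17.2 M to 29.4 M reads (M, 1e+06), counted over the genes of the table. Values are in CPM, the share of these reads that fell on a gene, scaled to a total of 1e+06 and not divided by gene length. Nelfb was measured at 17.3, 19.6 and 22.3 CPM in the CTL libraries 1, 2 and 3, against 5.50, 3.90 and 5.55 CPM in Nelfb-/- libraries 1, 2 and 3 (log2 fold change -1.99, SE 0.22, limma, adjusted p = 0.0050), so that every library matched its label. The adipocyte genes Adipoq, Plin1 and Fabp4 were detected in all libraries, with Adipoq at 698 to 1857 CPM in CTL and at 488 to 802 CPM in Nelfb-/- cells. Besides the genotype, which followed the leading principal component (59.9% of the variance), the libraries fell into sets that no label names. CTL replicates 1 and 2 lay with Nelfb-/- replicate 1, and CTL replicate 3 lay with Nelfb-/- replicates 2 and 3, along the next component (27.7%). This grouping is called the second split of the libraries.

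Per3 and Cry2, both repressors of the clock, were lower in Nelfb-/- than in CTL cells, and none of the 10 genes passed the test in the other direction. Per3 was 2.34-fold lower and Cry2 was 1.64-fold lower. The activator Clock was near 104 CPM in Nelfb-/- and 107 CPM in CTL cells, and Arntl had the only set of Nelfb-/- values that all lay above CTL, without passing the test. Nr1d1, Nr1d2, Dbp, Per1 and Per2 had lower means in Nelfb-/- cells, but their values overlapped between the groups.

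All 10 genes passed the filter on low values, with a lowest single value of 7.97 CPM, or 137 reads. In the fit over 16252 genes, 2 of the 10 passed an adjusted p of 0.05 (limma), next to 15.8% of all genes tested, so that the share of clock genes called in either direction was close to the background. Both were lower in Nelfb-/- cells, the direction in which 5.83% of all genes were called, and 0 were higher, the direction of 9.96%. At an unadjusted p under 0.05, 1 of the 10 was higher in Nelfb-/- cells (Arntl), next to 19.6% of all genes. With a change of at least 2-fold in addition, 1 of the 10 was called (Per3, lower in Nelfb-/- cells). Of the 16252 genes, 1824 were called at these limits in either direction, and 3.64% were called lower. The log2 fold change was negative in 8 genes and positive in 2, with a median of -0.61 next to 0.068 over all genes tested. All 3 Nelfb-/- libraries lay below all 3 CTL libraries in 2 of the 10 genes (16.1% of all genes), above them in 1 (22.0% of all genes), and the groups overlapped in the other 7.

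**Figure D1:**
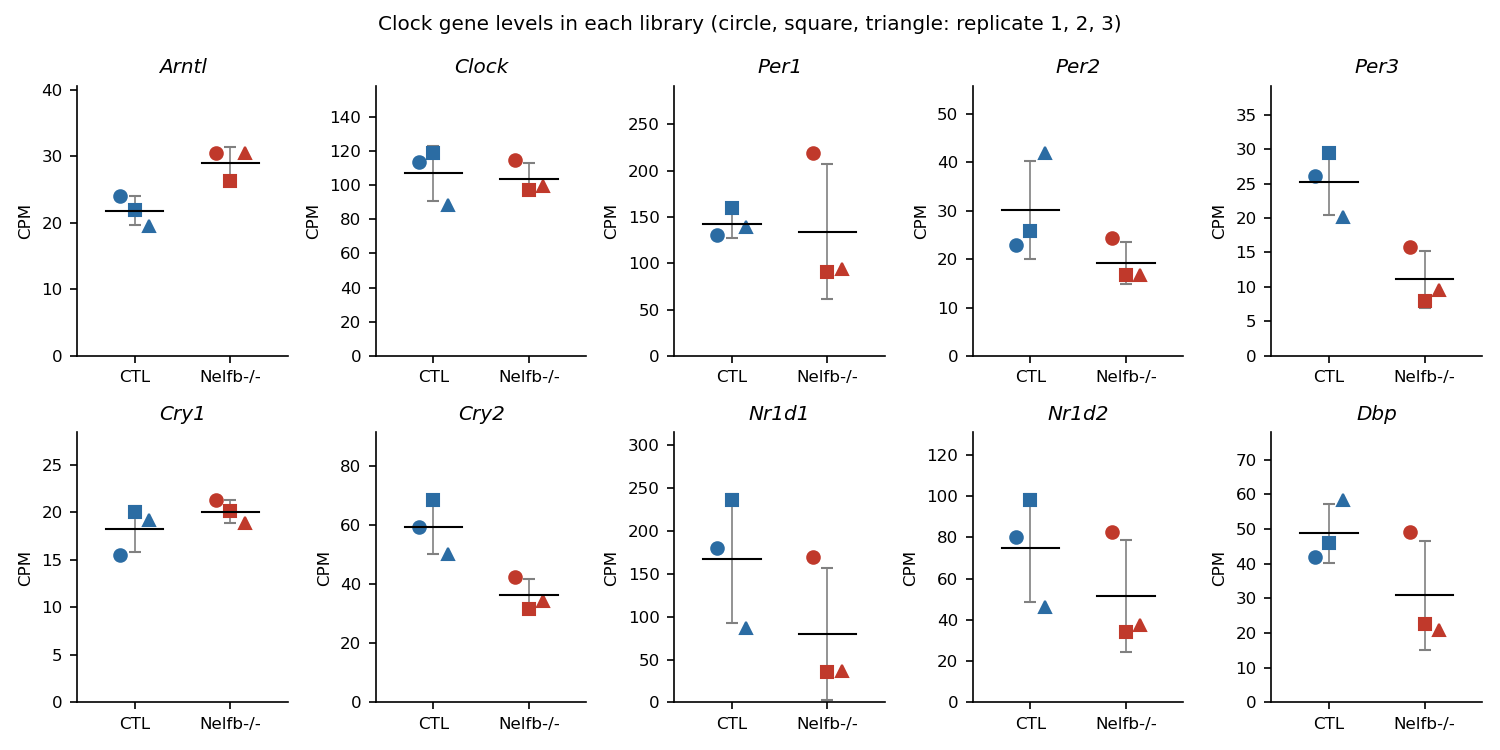
Level in CPM (vertical axis, linear and starting at 0) of each clock gene in the 3 CTL (blue) and 3 Nelfb-/- (red) libraries, with circles, squares and triangles for replicates 1, 2 and 3, a black line at the mean and a grey bar of 1 SD. The groups stand apart in Per3, Cry2 and Arntl, and in Nr1d1 the circle of Nelfb-/- replicate 1, at 169 CPM, sits far above the other 2 red points at 35.5 and 36.2 CPM.

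**Figure D2:**
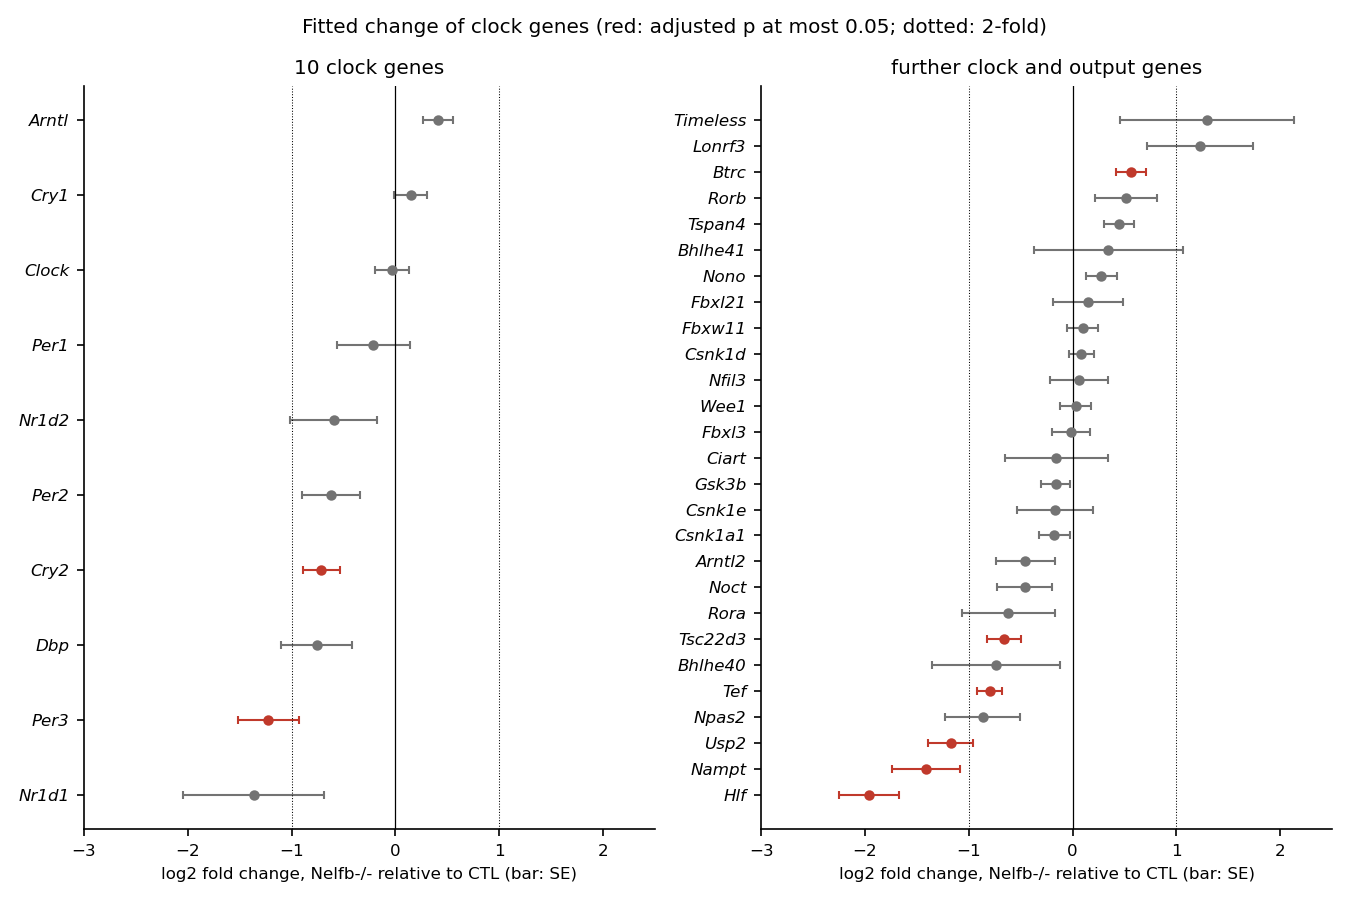
Fitted log2 fold change of Nelfb-/- relative to CTL cells (horizontal axis) with its SE, for the 10 clock genes on the left and further clock and output genes on the right, with red for an adjusted p of at most 0.05 and dotted lines at 2-fold. Nr1d1 has the lowest estimate of the 10 clock genes (-1.36) and also their largest SE (0.68), whereas Per3 and Cry2 are the red points.

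Promoter sequence is shown for the 4 clock genes whose window holds the letters of a clock motif, since these are the elements through which the loop acts. Windows ran from 250 bases before to 50 bases after a transcription start of RefSeq (GRCm38.p6, the assembly of mm10), and 13 windows were found for 9 of the 10 genes, all but Per2. Both strands were searched for the E-box CACGTG, the D-box TTATGTAA or TTACGTAA, the core of the ROR element TAGGTCA or TGGGTCA, and the CRE TGACGTCA, and no match overlapped another. Capitals mark the matches, and sequences read 5′ to 3′ on the strand of the gene, for Per3 (chr4:151044616-151044915, minus strand), Per1 (chr11:69098699-69098998, plus strand), Cry1 (chr10:85185005-85185304, minus strand) and Arntl (chr7:113207261-113207560, plus strand).
Per3: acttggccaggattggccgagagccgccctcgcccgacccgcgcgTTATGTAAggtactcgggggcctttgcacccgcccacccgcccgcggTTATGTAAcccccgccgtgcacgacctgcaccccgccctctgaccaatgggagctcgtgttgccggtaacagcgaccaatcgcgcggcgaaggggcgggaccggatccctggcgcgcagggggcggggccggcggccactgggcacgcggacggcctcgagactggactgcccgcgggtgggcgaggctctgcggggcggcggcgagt
Per1: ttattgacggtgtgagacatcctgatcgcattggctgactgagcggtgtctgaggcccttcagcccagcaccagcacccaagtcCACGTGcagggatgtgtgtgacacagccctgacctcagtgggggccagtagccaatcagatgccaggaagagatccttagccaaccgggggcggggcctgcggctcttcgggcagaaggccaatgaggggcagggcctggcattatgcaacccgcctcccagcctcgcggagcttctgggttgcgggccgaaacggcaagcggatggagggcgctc
Cry1: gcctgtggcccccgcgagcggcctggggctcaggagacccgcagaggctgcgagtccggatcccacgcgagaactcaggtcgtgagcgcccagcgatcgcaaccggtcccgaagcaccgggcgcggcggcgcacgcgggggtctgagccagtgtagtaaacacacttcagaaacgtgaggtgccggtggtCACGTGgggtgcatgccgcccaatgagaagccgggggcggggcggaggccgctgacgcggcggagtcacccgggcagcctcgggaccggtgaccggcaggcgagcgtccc
Arntl: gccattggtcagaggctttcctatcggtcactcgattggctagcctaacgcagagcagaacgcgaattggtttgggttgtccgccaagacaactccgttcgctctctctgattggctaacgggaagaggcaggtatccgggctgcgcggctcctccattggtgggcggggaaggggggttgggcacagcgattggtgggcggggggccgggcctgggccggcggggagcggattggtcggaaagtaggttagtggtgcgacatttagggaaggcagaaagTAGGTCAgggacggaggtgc

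The Per3 window held the D-box TTATGTAA at 2 places, starting at bases -205 and -158 from the transcription start. The E-box was found in the windows of Per1 (from base -166) and Cry1 (from base -60), and the core of the ROR element in 1 of the 2 Arntl windows (from base 30). Of all 32851 windows of the same length, 1.06% held the D-box, 7.15% the E-box, 6.45% the ROR core and 1.79% the CRE. The windows of Clock, Cry2, Nr1d1, Nr1d2 and Dbp held none of these letters, and the CRE was found in none of the 13 windows. A match describes the letters of the window and is not a measurement of binding.

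**Figure D3:**
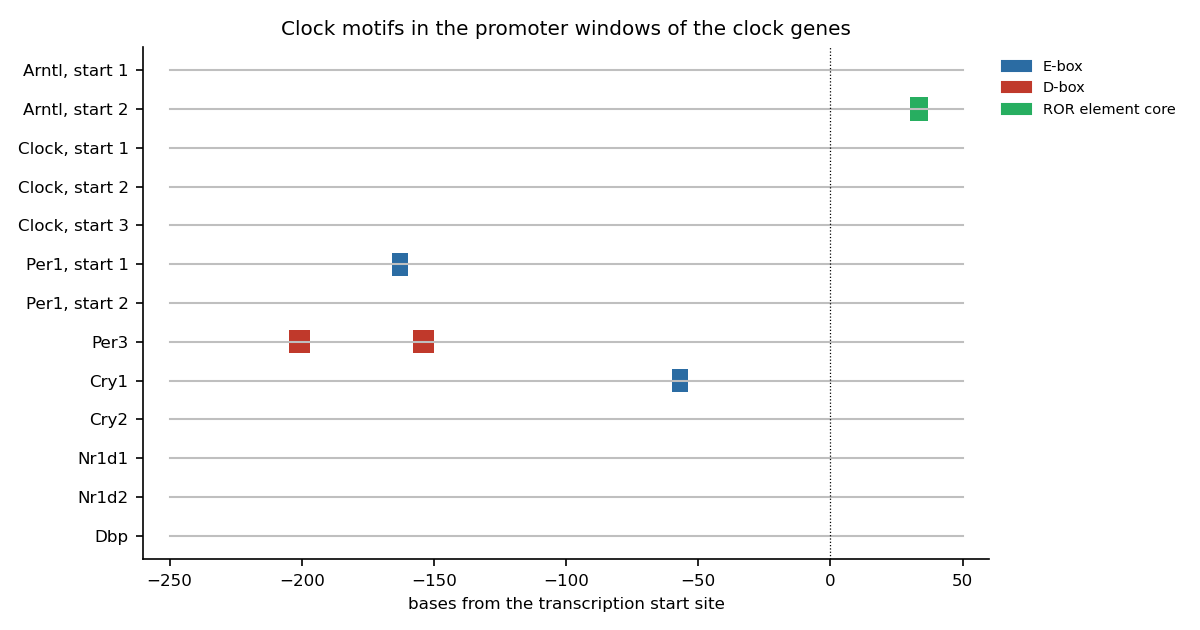
Position of motif letters (coloured bars, to scale) in the 13 promoter windows of 9 clock genes, in bases from the transcription start (horizontal axis), with 1 grey line for each window. Per3 carries both D-boxes (red), and Per1 and Cry1 carry 1 E-box each (blue).

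Neither activator passed the test. Arntl (ENSMUSG00000055116, chromosome 7 from 113207465 to 113314126, plus strand, mm10) was measured at 24.0, 21.9 and 19.6 CPM in the CTL libraries, against 30.4, 26.3 and 30.4 CPM in Nelfb-/- libraries 1, 2 and 3. Every Nelfb-/- library was above every CTL library, but the change missed the threshold (log2 fold change 0.41, SE 0.15, limma, adjusted p = 0.11). Clock (ENSMUSG00000029238, chromosome 5 from 76209868 to 76304792, minus strand), the partner of Arntl, was measured at 114, 118 and 88.2 CPM in the CTL libraries, against 114, 97.3 and 99.4 CPM in those of Nelfb-/- cells. These ranges overlapped, and the fitted difference was smaller than its error (log2 fold change -0.034, SE 0.16, adjusted p = 0.91). The Clock locus also holds the processed pseudogene Ube2n-ps1 on the same strand (459 bases), which was listed at 17.8 to 19.6 CPM in CTL and at 18.4 to 31.3 CPM in Nelfb-/- cells.

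Among the Per genes, which encode the period repressors, only Per3 passed the test, and whether its change differed from that of Per1 or Per2 was not tested. Per3 (ENSMUSG00000028957, chromosome 4 from 151003652 to 151044665, minus strand) was measured at 26.1, 29.4 and 20.1 CPM in the CTL libraries, against 15.8, 7.97 and 9.51 CPM in Nelfb-/- libraries 1, 2 and 3. Its group means were 25.2 CPM ± 4.69 (SD, n = 3) and 11.1 CPM ± 4.14 (SD, n = 3), and the highest Nelfb-/- library stayed below the lowest CTL library (log2 fold change -1.22, SE 0.29, limma, adjusted p = 0.037). The call for Per3 was lost when CTL replicate 1, CTL replicate 2, Nelfb-/- replicate 2 or Nelfb-/- replicate 3 was left out (adjusted p between 0.10 and 0.14), while the log2 fold change stayed between -1.51 and -1.02 over all such fits. The whole of Per3 lies within the span of Camta1 on the same strand, and Camta1 was listed at 5.81 to 7.47 CPM in CTL and at 4.54 to 6.78 CPM in Nelfb-/- cells (log2 fold change -0.21, adjusted p = 0.57).

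Per1 and Per2 overlapped between the groups. Per1 (ENSMUSG00000020893, chromosome 11 from 69095217 to 69109960, plus strand) was measured at 130, 160 and 139 CPM in the CTL libraries, against 219, 90.1 and 94.4 CPM in those of Nelfb-/- cells. Nelfb-/- replicate 1 was thus the highest of all 6 libraries and the other Nelfb-/- libraries were the lowest (log2 fold change -0.21, SE 0.35, adjusted p = 0.71). Per2 (ENSMUSG00000055866, chromosome 1 from 91415982 to 91459324, minus strand) was measured at 23.0, 25.8 and 41.9 CPM in the CTL libraries, against 24.3, 16.6 and 16.8 CPM in those of Nelfb-/- cells. Here CTL replicate 3 was the highest library, and Nelfb-/- replicate 1 lay between CTL replicates 1 and 2 (log2 fold change -0.62, SE 0.28, adjusted p = 0.18), and without CTL replicate 3 the log2 fold change was -0.36.

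Of the cryptochromes, partners of the Per proteins, Cry2 passed the test and Cry1 did not, and the difference between their changes was not tested. Cry2 (ENSMUSG00000068742, chromosome 2 from 92403646 to 92434043, minus strand) was measured at 59.5, 68.6 and 50.4 CPM in the CTL libraries, against 42.5, 31.8 and 34.4 CPM in Nelfb-/- libraries 1, 2 and 3. Group means were 59.5 CPM ± 9.10 (SD, n = 3) and 36.2 CPM ± 5.58 (SD, n = 3), and all Nelfb-/- libraries were below all CTL libraries (log2 fold change -0.71, SE 0.18, limma, adjusted p = 0.041). The call for Cry2 was lost without CTL replicate 1, CTL replicate 2, Nelfb-/- replicate 2 or Nelfb-/- replicate 3 (adjusted p between 0.13 and 0.16), with a log2 fold change between -0.83 and -0.61 over the fits that left out 1 library. Cry1 (ENSMUSG00000020038, chromosome 10 from 85131700 to 85185064, minus strand) was measured at 15.5, 20.02 and 19.1 CPM in the CTL libraries, against 21.3, 20.1 and 18.8 CPM in those of Nelfb-/- cells. Its groups overlapped and no difference was detected (log2 fold change 0.15, SE 0.16, adjusted p = 0.57). The value was 0.034 without CTL replicate 1, 0.082 under median-of-ratios scaling and 0.021 under quantile normalization. The antisense transcript D930015M05Rik lies across Cry2 and stayed under 1 CPM in every library.

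Nr1d1 and Nr1d2, which encode the REV-ERB repressors of Arntl, overlapped between the groups. Nr1d1 (ENSMUSG00000020889, chromosome 11 from 98767932 to 98775333, minus strand) was measured at 180, 236 and 87.1 CPM in the CTL libraries, against 169, 35.5 and 36.2 CPM in Nelfb-/- libraries 1, 2 and 3. Nelfb-/- replicate 1 sat inside the CTL range, whereas the other Nelfb-/- libraries lay below all CTL libraries (log2 fold change -1.36, SE 0.68, adjusted p = 0.22). Nr1d2 (ENSMUSG00000021775, chromosome 14 from 18204054 to 18239127, minus strand) was measured at 80.2, 98.2 and 46.5 CPM in the CTL libraries, against 82.8, 34.3 and 37.4 CPM in those of Nelfb-/- cells. Within each group its libraries had the same order as those of Nr1d1 (log2 fold change -0.59, SE 0.42, adjusted p = 0.37). This value was -0.998 without Nelfb-/- replicate 1, -0.91 without CTL replicate 3, -0.37 without CTL replicate 2, -0.36 without Nelfb-/- replicate 2 and -0.24 with the second split as a term. The 3′ end of Nr1d1 overlaps Thra on the opposite strand by 1075 bases, and Thra was listed at 59.9 to 91.0 CPM in CTL and at 61.3 to 101 CPM in Nelfb-/- cells (log2 fold change 0.22, adjusted p = 0.58). Whether reads were assigned by strand is not given in the sources used here, so that reads of neighbours on opposite strands could not be told apart.

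Dbp, the output factor that acts on D-boxes, had the same split among its Nelfb-/- libraries. Dbp (ENSMUSG00000059824, chromosome 7 from 45705088 to 45710203, plus strand) was measured at 41.8, 46.0 and 58.4 CPM in the CTL libraries, against 49.1, 22.5 and 20.9 CPM in those of Nelfb-/- cells. Nelfb-/- replicate 1 lay within the CTL range and the other Nelfb-/- libraries below it (log2 fold change -0.76, SE 0.34, adjusted p = 0.18). Sphk2 overlaps the 3′ end of Dbp on the opposite strand by 737 bases, and it was listed at 42.0 to 48.5 CPM in CTL and at 50.2 to 52.9 CPM in Nelfb-/- cells (log2 fold change 0.17, adjusted p = 0.36).

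The clock genes could be ordered by level once each value was divided by the joint length of all annotated exons of the gene. This need not be the length of the transcripts present, and the order can depend on it. In CTL cells, Nr1d1 had the highest level, at 54.5 CPM per kb ± 24.5 (SD, n = 3), followed by Per1 at 25.4 ± 2.705, Dbp at 16.3 ± 2.87 and Nr1d2 at 13.9 ± 4.85. Cry2 stood at 9.41 CPM per kb ± 1.44, Clock at 7.78 ± 1.18, Cry1 at 5.45 ± 0.72 and Per2 at 5.16 ± 1.74. Arntl (2.90 CPM per kb ± 0.30) and Per3 (2.62 ± 0.49) were the lowest. Of the neighbours in this order, Per1 and Dbp, Clock and Cry1, and Per2 and Arntl had CTL ranges that did not overlap, whereas the other pairs of neighbours overlapped. By the means of the Nelfb-/- cells the top 4 kept their places, although in Nelfb-/- replicates 2 and 3 Per1 was above Nr1d1 and Clock was above Nr1d2. By the same means Cry2 moved from rank 5 to 7 and Per3 stayed last at 1.15 CPM per kb ± 0.43 (SD, n = 3).

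Nelfb-/- replicate 1 stood apart from the other Nelfb-/- libraries and was the highest of the 3 in 9 of the 10 clock genes, next to 44.1% of all genes tested. Compared with the mean of Nelfb-/- replicates 2 and 3, its level was 4.72-fold higher for Nr1d1, 2.37-fold for Per1, 2.31-fold for Nr1d2, 2.26-fold for Dbp and 1.81-fold for Per3. The summed level of macrophage markers was also highest in this library, at 2786 CPM against 826 and 1333 CPM in Nelfb-/- replicates 2 and 3, and its part in these differences was not tested. The range of Nr1d1 over the Nelfb-/- libraries (2.25 on the log2 scale) exceeded that of 95.3% of all genes tested. In CTL cells, replicate 3 was the lowest library in 6 of the 10 clock genes, next to 39.3% of all genes, and the highest for Per2 and Dbp. The mean of CTL replicates 1 and 2 was 2.39-fold that of CTL replicate 3 for Nr1d1 and 1.92-fold for Nr1d2.

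Without Nelfb-/- replicate 1, 5 of the 10 clock genes passed an adjusted p of 0.05, all lower in Nelfb-/- cells, next to 18.3% of all genes called in either direction in that fit. The log2 fold changes were then -2.11 for Nr1d1 (limma, adjusted p = 0.029), -1.51 for Per3 (adjusted p = 0.015), -1.15 for Dbp (adjusted p = 0.018), -0.83 for Cry2 (adjusted p = 0.028) and -0.63 for Per1 (adjusted p = 0.035). Nr1d1, Dbp and Per1 were not called in the main fit, and the calls for Per3 and Cry2 were lost without Nelfb-/- replicate 2 or 3. In these fits all 5 calls thus depended on which Nelfb-/- libraries were used. With the second split added to the fit as a term, 4 of the 10 were called (Arntl, Per3, Cry2 and Nr1d1), next to 36.4% of all genes called in that fit, so that this share too was close to its background. The log2 fold change of Nr1d1 was -0.78 in that fit (limma, adjusted p = 0.040). The split was read from these same libraries, so that the calls of that fit are no independent result.

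Within the sets of libraries made by the second split, 5 clock genes were lower in Nelfb-/- cells in both sets, 2 were higher in both and 3 changed sign. The same count was not made over all genes. Cry2 had nearly equal differences, -0.59 for Nelfb-/- replicate 1 relative to the mean of CTL replicates 1 and 2, and -0.61 for the mean of Nelfb-/- replicates 2 and 3 relative to CTL replicate 3, both on the log2 scale. Per3 differed by -0.81 and -1.20 in the same sets, and Arntl by 0.41 and 0.53. Per1 changed sign, at 0.60 and -0.59, as did Dbp at 0.16 and -1.43 and Clock at -0.020 and 0.16. Nr1d1 differed by -0.28 and -1.28, Nr1d2 by -0.10 and -0.38, Per2 by -0.0010 and -1.32, and Cry1 by 0.27 and 0.023. These sets hold 1 or 2 libraries of each genotype, were seen in the same data, and give no test.

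**Figure D4:**
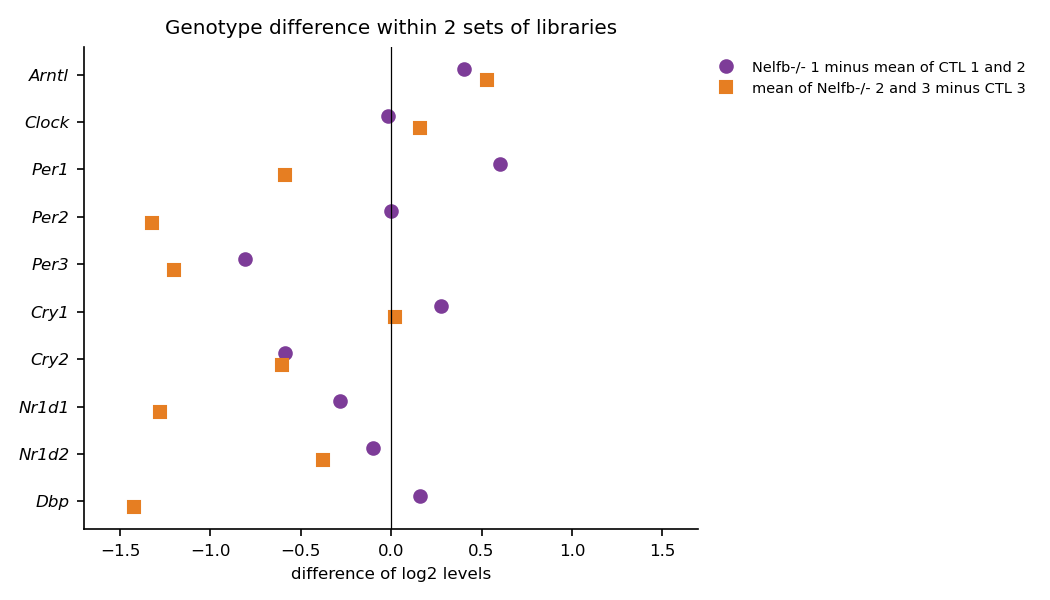
Difference of log2 levels between Nelfb-/- and CTL libraries (horizontal axis) within each of 2 sets of libraries, for the 10 clock genes. The circle and the square nearly coincide for Cry2 (-0.59 and -0.61) and lie on opposite sides of 0 for Dbp (0.16 and -1.43) and Per1 (0.60 and -0.59).

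Other measured features of the cultures moved with the groups or with the second split. The summed level of 6 proliferation genes was 67.1, 65.2 and 311 CPM in the CTL libraries, against 68.3, 354 and 304 CPM in Nelfb-/- libraries 1, 2 and 3, so that it followed the second split. The summed level of 10 fibroblast genes was 3614, 3186 and 12389 CPM in the CTL libraries, against 6494, 24103 and 25975 CPM in those of Nelfb-/- cells, most of it from Col1a1 and Col3a1. Nelfb-/- replicate 1 was the lowest Nelfb-/- library for all 10 fibroblast genes, and CTL replicate 3 was the highest CTL library for all but Dcn. The 10 adipocyte genes summed to between 18242 and 29529 CPM in CTL and between 9315 and 18462 CPM in Nelfb-/- cells, with Fabp4 the largest part in every library, and of the single genes Retn and Slc2a4 were called lower and Lep higher in Nelfb-/- cells. Markers of macrophages (8 of 8 genes detected) summed to 334, 199 and 109 CPM in the CTL libraries, against 2786, 826 and 1333 CPM in those of Nelfb-/- cells. Those of skeletal muscle summed to 6.86 to 7.11 CPM in CTL and to 62.3, 37.7 and 39.3 CPM in Nelfb-/- libraries 1, 2 and 3. The library that was the highest of the Nelfb-/- libraries for 9 of the 10 clock genes, replicate 1, also had the highest macrophage, muscle and endothelial sums of all 6 libraries and the lowest adipocyte sum. The keratinocyte sum was 2.75 to 3.17 CPM in CTL and 6.69 to 14.6 CPM in Nelfb-/- cells, with Dsg3 not listed in the table, and 4 endothelial genes summed to 6.70 to 10.2 and 6.81 to 18.5 CPM. The part of these cell populations in the levels of the clock genes was not tested, and in bulk RNA fewer cells of a type cannot be told apart from less RNA per cell.

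Since Arntl and its targets peak at different times of day, their ratio was taken within each library. The log2 ratio of Nr1d1 to Arntl was 2.91, 3.43 and 2.16 in CTL and 2.48, 0.44 and 0.25 in Nelfb-/- replicates 1, 2 and 3. Nelfb-/- replicate 1 again fell inside the CTL range, and so it did for Nr1d2 to Arntl, at 1.74, 2.16 and 1.25 in CTL and 1.45, 0.39 and 0.30 in Nelfb-/- cells. The ratio of Dbp to Arntl was 0.80, 1.07 and 1.58 in CTL and 0.69, -0.22 and -0.54 in Nelfb-/- cells. That of Per3 to Arntl was 0.12, 0.42 and 0.040 in CTL and -0.94, -1.72 and -1.68 in Nelfb-/- cells. That of Per2 to Arntl was -0.061, 0.23 and 1.10 in CTL and -0.32, -0.66 and -0.85 in Nelfb-/- cells. In these last 3 ratios the groups did not overlap and Nelfb-/- cells were the lower, with Nelfb-/- replicate 1 the nearest to CTL each time. Every Nelfb-/- library was already above CTL for Arntl and below CTL for Per3, so that the ratio of Per3 to Arntl could only separate the groups. For Dbp and Per2 alone the groups overlapped. The share of all genes whose ratio to Arntl separates the groups was not counted. The ratio of Cry1 to Nr1d1, in which both genes encode repressors, was -3.54, -3.56 and -2.19 in CTL and -2.99, -0.82 and -0.94 in Nelfb-/- cells, and its groups overlapped. These ratios are descriptions without a test, and phase cannot be read from cultures collected at a single time.

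**Figure D5:**
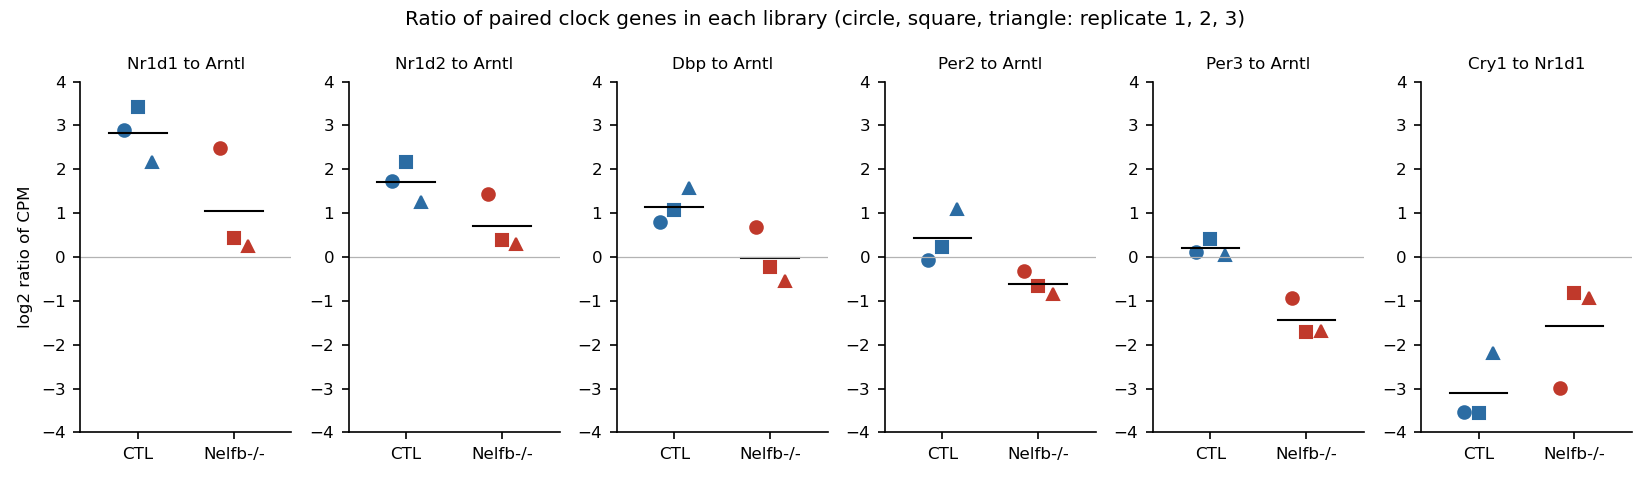
Log2 ratio of CPM (vertical axis) of 6 pairs of clock genes in each CTL (blue) and Nelfb-/- (red) library, with circles, squares and triangles for replicates 1, 2 and 3 and a black line at the mean. In the ratios of Dbp, Per2 and Per3 to Arntl all red points lie below the blue points, and in the others the circle of Nelfb-/- replicate 1 lies among the blue points.

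Over the 6 libraries, the closest pair among the clock genes was Per3 and Cry2 (Pearson r of log2 values 0.989), followed by Nr1d1 and Nr1d2 (0.980). Among 12004 genes of higher level (mean of 100 or more reads), Zfp932 (r = 0.999) and Bend3 (0.994) were among those whose values were most like Arntl. Prpf6 (0.999) and Klhl21 (0.996) were among those most like Nr1d1, and Epg5 (0.995) and Rsbn1 (0.994) among those most like Dbp. The points share the 6 libraries, the groups and the second split, so that such values describe the order of these libraries and nothing else.

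Outside the 10 genes, 28 further genes of the clock were examined, with 21 regulators and 7 outputs. All 28 were tested, 6 passed an adjusted p of 0.05 (5 lower and 1 higher in Nelfb-/- cells, next to 5.83% and 9.96% of all genes), and the median log2 fold change was -0.15 for the regulators and -0.46 for the outputs. Nelfb-/- libraries lay below CTL in 6 of the 28, above CTL in 4 (16.1% and 22.0% of all genes), and the groups overlapped in 18. Each of the 6 calls was lost without at least 1 library, and without Nelfb-/- replicate 3 limma called 0 of the 28, with 8 at an unadjusted p under 0.05, next to 2.68% and 22.6% of all genes in that fit. Tef and Hlf, which encode factors of the same PAR bZIP family as Dbp, were both lower, with Tef at 125, 135 and 112 CPM in the CTL libraries, against 70.7, 70.7 and 71.6 CPM in those of Nelfb-/- cells (log2 fold change -0.80, SE 0.12, limma, adjusted p = 0.011). Hlf was at 4.65, 3.73 and 5.61 CPM in the CTL libraries, against 1.38, 0.931 and 1.18 CPM in those of Nelfb-/- cells (log2 fold change -1.96, SE 0.29, adjusted p = 0.0099). The highest Nelfb-/- library was 1.01-fold the lowest for Tef and 1.48-fold for Hlf, next to 2.34-fold for Dbp.

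The outputs that were lower were Usp2, a deubiquitinase, Nampt, the enzyme that limits NAD synthesis by salvage, and Tsc22d3, a glucocorticoid-induced gene. Usp2 was at 33.4, 27.3 and 46.2 CPM in the CTL libraries, against 14.4, 15.3 and 16.6 CPM in those of Nelfb-/- cells (log2 fold change -1.17, SE 0.22, limma, adjusted p = 0.017). Nampt was at 677, 644 and 777 CPM in the CTL libraries, against 439, 220 and 186 CPM in those of Nelfb-/- cells (log2 fold change -1.41, SE 0.33, adjusted p = 0.035). In each of these the groups stood apart, with Nelfb-/- replicate 1 the highest Nelfb-/- library for Nampt and the lowest for Usp2. Tsc22d3 was at 459, 489 and 379 CPM in the CTL libraries, against 301, 252 and 284 CPM in those of Nelfb-/- cells (log2 fold change -0.66, SE 0.17, adjusted p = 0.043). Btrc, which encodes a ubiquitin ligase subunit that recognises Per proteins, was higher, at 16.6, 17.2 and 20.47 CPM in the CTL libraries, against 27.98, 25.4 and 26.6 CPM in those of Nelfb-/- cells (log2 fold change 0.56, SE 0.15, adjusted p = 0.047). The call for Btrc was lost under median-of-ratios scaling (adjusted p = 0.057) and quantile normalization (adjusted p = 0.066).

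Timeless and Lonrf3 were among the genes with a change of at least 2-fold and no call. Timeless, known in mammals for its part at the replication fork, was at 3.52, 2.10 and 10.9 CPM in the CTL libraries, against 3.56, 18.6 and 18.4 CPM in those of Nelfb-/- cells (log2 fold change 1.30, SE 0.84, adjusted p = 0.33), and so it followed the second split. Its log2 fold change ranged from 0.78 without CTL replicate 2 to 2.08 without Nelfb-/- replicate 1, and it was 0.57 with the second split as a term. Lonrf3 was at 13.2, 14.2 and 5.81 CPM in the CTL libraries, against 46.6, 19.0 and 16.0 CPM in those of Nelfb-/- cells (log2 fold change 1.23, SE 0.51, adjusted p = 0.15), so that all Nelfb-/- libraries were above CTL. With the second split as a term, limma called it (log2 fold change 1.67, adjusted p = 0.00066), next to 36.4% of all genes. The split was read from these same libraries, so that this call is no independent result. The log2 fold change of Lonrf3 was 0.82 without CTL replicate 3 and 0.76 without Nelfb-/- replicate 1.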

How the data were processed

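Total RNA of 6 cultures was sequenced. The processing notes name STAR 2.7, Partek 9.0.20.0202 and mm10, while the study's methods credit the alignment to another program. How reads were counted, and on which strand, is not given in the sources used here. The CPM values deposited by the authors summed to 1e+06 in each library once an offset of 0.0001 was subtracted. Low values rose in steps of 1 read, which gave the depths, and all values were scaled to 22.3 M reads. Only 68.7% to 71.1% of values up to 20 reads were whole reads (within 0.01 reads), so no count test was run. A gene was tested if its mean reached 10 reads, on log2(value + 1) with limma 3.58.1 (R 4.3.3), a trend of variance with abundance and the Benjamini-Hochberg adjustment. Fold changes are on this scale, which understates low genes. Scripts were tested on simulated data.

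The 10 genes and the lists of further genes were chosen with earlier results of these data known. Further clock genes are named if called or changed at least 2-fold, and also genes that overlap 1 of the 10 and the 3 genes most like Arntl, Nr1d1 and Dbp. Of the genes this rule names, 4 are not reported here. IDs and exon lengths come from GENCODE vM21, matched by name. P-values measure the spread between these samples. An exact permutation test of 1 gene cannot give a p below 0.1 with 3 against 3 libraries. Alternatives changed the pseudocount, filter, scaling, variance, covariates and libraries.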

Additional observations from a re-analysis of the deposited data

How the results depend on the processing

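Each result was recomputed under 15 alternatives. Among the 10 clock genes, 2 were called at an adjusted p of 0.05 under both other pseudocounts, both other filters and both other scalings. The count was 0 without moderation of the variance, 4 with the second split as a term, and 0 to 5 when each library was left out. It was 0 without CTL replicate 1, CTL replicate 2, Nelfb-/- replicate 2 or Nelfb-/- replicate 3, and 5 without Nelfb-/- replicate 1, next to 5.63%, 4.86%, 6.33%, 2.68% and 18.3% of all genes in these fits. Where 0 were called by limma, 2 to 4 of the 10 had an unadjusted p under 0.05, next to 22.6% to 25.5% of all genes with a library left out. Without moderation 3 had, next to 29.3% of all genes, and 6.93% of all genes were called. Without CTL replicate 3, 2 of the 10 were called, next to 22.5% of all genes. The fits with a library left out all had the same number of libraries, and why their counts differed was not tested. Of the 28 further genes, 6 were called, with 2 without moderation, 10 with the second split as a term and 0 to 6 with a library left out (1 without CTL replicate 1, 2 without CTL replicate 2 or Nelfb-/- replicate 2, 0 without Nelfb-/- replicate 3). Over all genes, 1824 passed at 2-fold, 684 without moderation, 2743 with that term, and 426 to 2479 with a library left out (871 without CTL replicate 1, 758 without CTL replicate 2, 945 without Nelfb-/- replicate 2, 426 without Nelfb-/- replicate 3). Quantile normalization gave 1014 higher and 834 lower genes in place of 1232 and 592 (54.9% against 67.5% higher), and moved the median of all genes from 0.068 to -0.068. The sign changed for Clock with that term (log2 fold change 0.069) and without CTL replicate 1, CTL replicate 2 or Nelfb-/- replicate 2 (-0.17 to 0.047 with a library left out), and for Per1 with that term (0.0051) and without Nelfb-/- replicate 2 (-0.63 to 0.013).

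The labels do not say whether replicate numbers pair the libraries. Deviations of same-numbered libraries correlated at 0.52, -0.39 and 0.52, but they also carry the second split and cannot decide this. With the replicate number as a block, 1 of the 10 clock genes (Per3), 5 of the 28 further genes (Lonrf3 among them, adjusted p = 0.044) and 2690 of all genes passed an adjusted p of 0.05 with limma, and 2175 of all genes also changed at least 2-fold.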
